A study of Mus musculus with 2 samples.

Results

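The chemokine ligands are the small secreted or membrane-bound proteins that guide white blood cells and microglia. They were taken here as every gene on a mouse expression array whose name begins with Ccl, Cxcl, Cx3cl or Xcl followed by a digit. The rule gave 35 genes with 47 probes, of 35015 gene names on the array. The cells were spinal cord microglia, the macrophages that reside in nervous tissue, sorted from control animals and from a mouse model of atopic diathesis, a tendency towards allergic disease. There was 1 array for each group, on total RNA amplified and labelled with Cy3, and the titles call the control sample normal and the atopic diathesis sample activated. The strain, age, number of mice per sample and the way the model was made are not given in the sources used here. Because each group is 1 sample, differences could not be checked in replicates or tested, and every value describes this pair of arrays.

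Chemokines are grouped by the spacing of their first cysteines into CC, CXC, CX3C and C families and act through G protein-coupled receptors, often with several ligands for 1 receptor. Ccl2, Ccl3 and Ccl4 are induced through NF-kappaB in activated macrophages and microglia, and spinal cord chemokine signalling is known for its part in pain. Microglia carry Cx3cr1, the receptor of the neuronal ligand fractalkine. Ligands such as Ccl11, Ccl17, Ccl22 and Ccl24 belong to allergic, type 2 inflammation.

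A probe was called well above background by the scanner software's own flag, and a gene was measured where at least 1 probe carried that flag on both arrays. Genes described below as on neither array had probes there, but no probe passed the flag. Of the 35 ligand genes, 11 (31.4%) were measured, against 26.3% of all genes. A further 21 (60%) did not pass the background flag on either array, against 61.2% of all genes. On the control array only there was 1 (4.14% of all genes), and on the atopic diathesis array only there were 2 (8.06% of all genes). Detection of the family was thus near that of the array as a whole. The microglia markers P2ry12, Tmem119, Cx3cr1, Sall1, Csf1r, Aif1 and Itgam were all measured, and each lay within 2-fold between the arrays. Signals well above background began at 19.8 fluorescence units in control and 19.9 in atopic diathesis, with 0 saturated spots.

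Log2 differences are atopic diathesis minus control, relative to the median measured gene, whose own log2 difference before centring was -0.03. Of the 11 measured ligands, Ccl24 was at least 2-fold higher and Ccl19 at least 2-fold lower, and 9 lay within 2-fold. Among all 9217 measured genes, 17.3% were at least 2-fold higher, 15.6% at least 2-fold lower and 32.9% past 2-fold in either direction. The median over the measured ligands was -0.12, against 0 for all measured genes by construction. The median size of the difference was 0.57 for the ligands and 0.60 for all measured genes. Repeated spots of the same probe, for 101 probes, gave a 95% interval of ±0.40 on a log2 difference between single spots. It leaves out the spread between mice, sorts and amplifications. It is 1 width pooled over these probes, and was not checked separately for dim spots such as those of Ccl24, Ccl19 and Ccl25. Of the 11 ligands, 4 (Ccl2, Ccl3, Ccl4 and Cxcl11) lay inside it around the median gene, as did 37.2% of all measured genes. Ccl2 is a mean of 10 spots per array and Cxcl11 a mean of 2 probes, so for these the interval is wider than their spot error. Lying inside it does not show that they equal the median gene. In sorted cells measured in bulk, fewer cells of a type and less RNA per cell cannot be told apart.

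**Figure D1:**
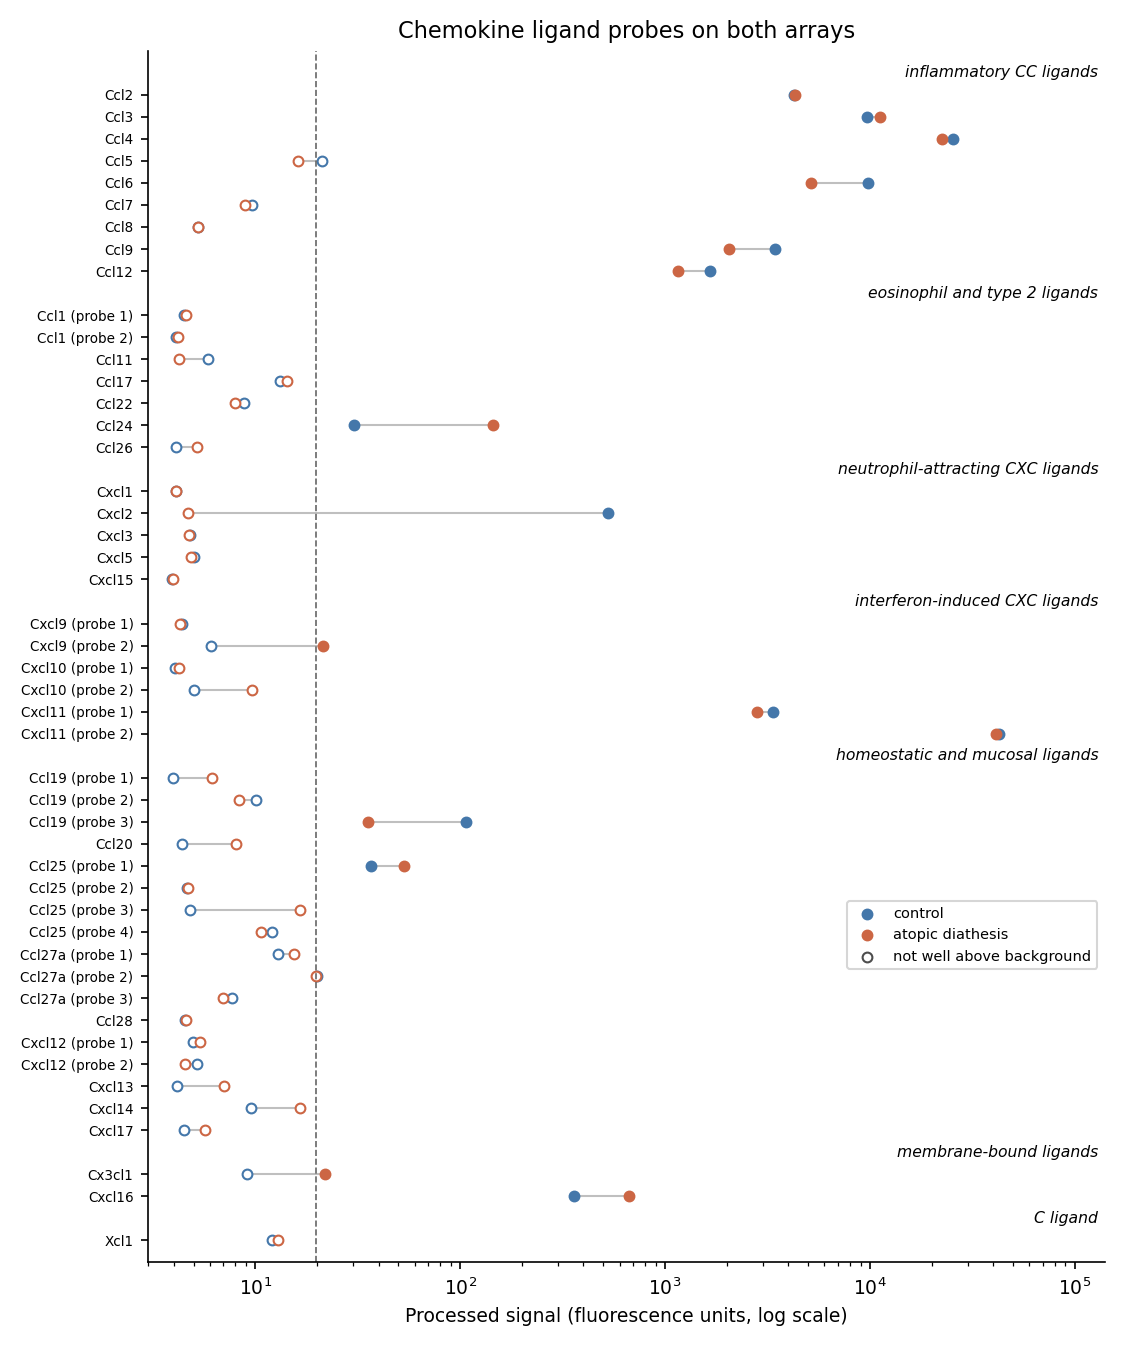
Processed signal (fluorescence units, log scale) of each of the 47 chemokine ligand probes, with control in blue and atopic diathesis in red, grouped by the ligands' roles. Filled points are well above background, open points are not, and the dashed line is the lowest signal well above background on the control array (19.8). The inflammatory CC ligands divide into 6 genes with signals of 1159 and higher on both arrays and 3 near or below the line, and Cxcl2 is filled on the control array only.

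Of the 7 measured ligands with a signal over 1000, 6 were inflammatory CC ligands and the other was Cxcl11. None of these 7 lay past 2-fold, against 26.3% of the 2171 measured genes with signals in that range. Of 9 inflammatory CC ligands, 6 were measured (median log2 difference -0.31), and Ccl5, Ccl7 and Ccl8 did not pass the background flag on either array. Ccl2, which recruits monocytes through Ccr2, was printed as 10 spots on each array. Its signals ran from 3966 over a median of 4318 to 4505 in control and from 3929 over 4385 to 4546 in atopic diathesis microglia. The spots overlapped over nearly the whole range, with means of 4284 ± 148 and 4337 ± 186 (SD, 10 spots of 1 sample each). The log2 difference of Ccl2 was 0.05 (SE 0.026 over spots only, not paired by position), and it lay on either side of 0 over the processing settings (-0.45 to 0.13). The 10 spots stood at the same positions on both arrays, and the same positions gave the lowest and the highest signal on each. Part of the spread is thus shared by position, which neither the overlap nor this SE takes into account.

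**Figure D2:**
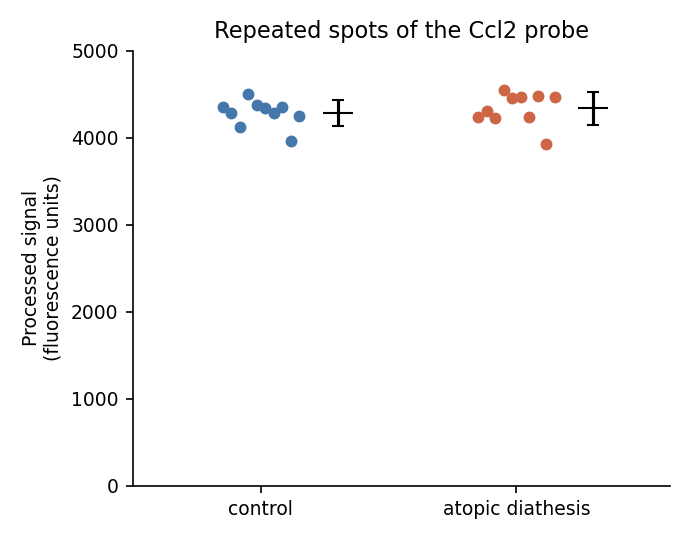
Processed signal (fluorescence units, axis from 0) of the 10 repeated spots of the Ccl2 probe on the control array and the 10 on the atopic diathesis array. The bar beside each set is the mean ± SD over spots, 4284 ± 148 and 4337 ± 186, and the spots of both arrays overlap.

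Ccl3 and Ccl4, the macrophage inflammatory proteins, are neighbours on chromosome 11. Ccl3 read 9642 in control and 11214 in atopic diathesis microglia, a log2 difference of 0.25 that turned to -0.25 with the 75th percentile of all probes as the scale. Ccl4 read 25402 and 22516, a difference of -0.14. Both lay inside the spot interval around the median gene. Ccl12, a mouse ligand of Ccr2, read 1664 and 1159, a difference of -0.49, outside that interval but within 2-fold.

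Ccl6 and Ccl9, which bind Ccr1, had the lowest log2 differences among the ligands with signals over 1000. The Ccl6 signal was 9805 in control and 5160 in atopic diathesis microglia (log2 difference -0.89, 1.86-fold lower). The Ccl9 signal was 3444 and 2064 (log2 difference -0.71, 1.63-fold lower). Both were lower on every scale run, with -0.81 and -0.62 as the smallest differences, and past 2-fold with all probes' 75th percentile, at -1.39 and -1.21. Ccl6 was also past 2-fold, at -1.08, when 1 array above background sufficed. Differences as large as that of Ccl6 in either direction were found in 36.5% of measured genes, and as large as that of Ccl9 in 44.6%.

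**Figure D3:**
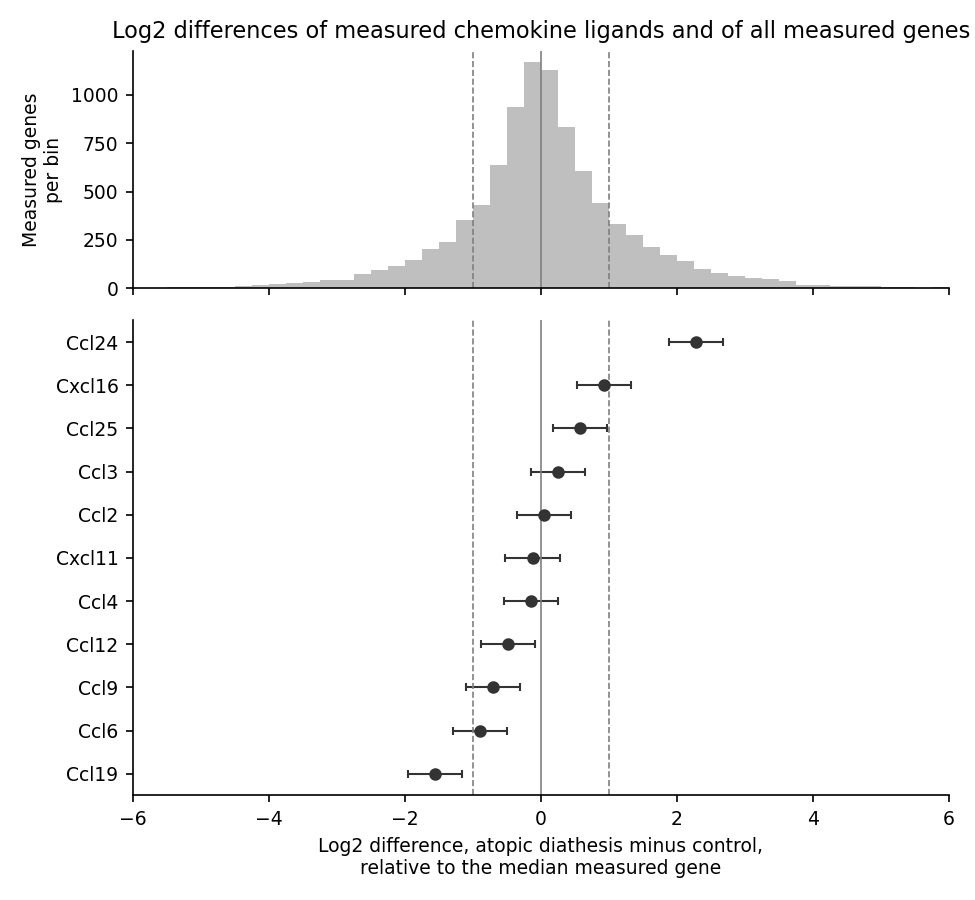
Lower panel, log2 difference (atopic diathesis minus control, relative to the median measured gene) of the 11 measured chemokine ligands, with bars of ±0.40 that cover only the error of single spots. Upper panel, the number of all 9217 measured genes per bin of the same difference, where dashed lines mark 2-fold, which Ccl24 (2.29) and Ccl19 (-1.55) pass.

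In mm9 probe coordinates the CC ligands of chromosome 11 form a pair of clusters, split here where neighbouring probes lie more than 250000 bases apart. The first, from 81850650 to 81990510, holds Ccl2, Ccl7, Ccl11, Ccl12, Ccl8 and Ccl1 in that order. Of these, Ccl2 and Ccl12 were measured and 4 did not pass the background flag on either array. The second, from 83339296 to 83478111, holds Ccl5, Ccl9, Ccl6, Ccl3 and Ccl4, of which 4 were measured and Ccl5 was not. Ccl5, a T cell chemoattractant, read 21.1 and 16.1 without the flag. Detected and undetected ligands therefore stood side by side in both clusters. Neither exon nor UTR annotation of mm9 was used here.

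Among ligands of eosinophils and type 2 responses, Ccl24 stood alone. Ccl24, or eotaxin-2, attracts eosinophils through Ccr3, and its single spot read 30.3 in control and 145 in the atopic diathesis sample, a 4.88-fold higher value (log2 difference 2.29). Its probe lies at 136046667 to 136046726 of chromosome 5 (mm9, minus strand), and 30 of its bases are shown as the sequence behind this call.
Ccl24 probe: ccaagtttgctgtccagagacgccgtggca
 The control value lay close to the lowest signal well above background, so the fold depends on how background is treated: the log2 difference was 1.23 with normexp background correction and 1.07 on uncorrected signals, still past 2-fold. A difference of that size was found in 8.74% of measured genes. The other 5 genes of this group, Ccl1, Ccl11, Ccl17, Ccl22 and Ccl26, did not pass the background flag on either array. Ccl11 read 5.86 and 4.24, Ccl17 13.2 and 14.4, and Ccl22 8.83 and 7.98. Ccl26, whose probe lies next to that of Ccl24 on chromosome 5, read 4.10 and 5.17. Ccr3 itself read 18.8 and 17.1, not well above background.

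Markers of other cells that can make Ccl24 were looked at beside it. Of 7 border macrophage markers (Mrc1, Cd163, Lyve1, Pf4, F13a1, Cbr2 and Ms4a7), 0 were well above background on either array, and their signals summed to 34.2 and 31.8. Of 5 mast cell markers, Mcpt4 passed only on the atopic diathesis array (5.02 and 56.5), while Cpa3, Tpsb2, Cma1 and Fcer1a did not pass on either array. The summed signal of that list was 38.9 and 94.0, and its part in the Ccl24 difference was not tested.

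Cxcl2 was the only ligand above background on the control array alone. It attracts neutrophils through Cxcr2, and it read 525 in control and 4.72 in atopic diathesis microglia. The bound, taken against the lowest signal well above background on the dim array, was at least 25.8-fold lower in atopic diathesis. Of the 1448 genes detected on the control array only, 51.1% had a 2-fold or larger bound and 47 (3.25%) had one as large as that of Cxcl2. With normexp the bound was 6.85-fold and on uncorrected signals 5.65-fold. Cxcl2 has 1 probe on 1 spot per array, at 91334534 to 91334593 of chromosome 5 (mm9), so no second reading bears on it.

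The other neutrophil ligands lie in the same cluster, from 91190490 to 91334593, and were dark on both arrays. Cxcl1 read 4.10 and 4.09, Cxcl3 4.79 and 4.78, Cxcl5 5.02 and 4.87, and Cxcl15 3.91 and 3.99. Of 5 neutrophil markers (S100a8, S100a9, Ly6g, Retnlg and Mmp8), 0 were well above background on either array, with summed signals of 37.1 and 36.5. Of 4 monocyte markers on the array, Fn1 was above background in control only (75.7 and 13.2), and Ccr2, Plac8 and Chil3 were on neither. Summed monocyte marker signals were 96.9 and 37.7, and their part in the Cxcl2 value was not tested. Of 5 endothelial markers, Flt1 passed on the control array only (328 and 5.07, at least 16.1-fold lower), as Cxcl2 did, and Pecam1 on the atopic diathesis array only (5.64 and 127, at least 6.57-fold higher), while Cldn5, Cdh5 and Tek were on neither. The summed endothelial signal was 348 and 150. Among glial markers, the astrocyte gene Gja1 (10.4 and 241, at least 12.5-fold) and the oligodendrocyte genes Mag (14.9 and 48.9, at least 2.53-fold) and Cnp (68.2 and 216, log2 difference 1.70) read higher in atopic diathesis. Gfap, Slc1a3 and Mbp lay within 2-fold, and Aqp4, Aldh1l1 and Mog were on neither array. The summed astrocyte signal was 803 and 1013. The part of these cells in any ligand value was not tested.

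Cxcl2 and its dark neighbours Cxcl1 and Cxcl3 carry closely similar start regions, which are shown to set a detected gene beside undetected ones. These are the 120 bases before the start site from RefSeq (GRCm38.p6, plus strand), with capitals for matches on either strand to the NF-kappaB consensus of 10 bases and to TATAAA. Adjoining matches overlap by all but 1 base and appear as a run of capitals.
Cxcl2 (chr5:90903779-90903898): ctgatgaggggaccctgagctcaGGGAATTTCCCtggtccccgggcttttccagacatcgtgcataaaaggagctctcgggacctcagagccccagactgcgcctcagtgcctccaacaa
Cxcl1 (chr5:90891125-90891244): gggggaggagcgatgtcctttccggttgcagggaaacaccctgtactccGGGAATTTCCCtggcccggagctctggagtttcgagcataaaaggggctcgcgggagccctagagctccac
Cxcl3 (chr5:90785981-90786100): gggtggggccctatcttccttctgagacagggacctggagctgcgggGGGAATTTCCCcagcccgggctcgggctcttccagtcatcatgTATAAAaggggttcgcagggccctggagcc
All 3 hold the same run of capitals, beginning 97 bases before the start in Cxcl2, 71 in Cxcl1 and 73 in Cxcl3, and TATAAA is matched in Cxcl3 at 30 bases before it. Promoter entries were matched for 24 of the 35 ligand genes, in 27 windows. The measured ligands Ccl2, Ccl4, Ccl24, Cxcl11 and Cxcl16 were among those without an entry. Their start regions were therefore not searched, and the counts below say nothing of them. Within 250 bases before the start, the NF-kappaB consensus matched in 7 of these windows (Ccl1, Ccl9, Ccl20, Cxcl1, Cxcl2, Cxcl3 and Cxcl10), against 7.25% of all 32851 windows. TATAAA matched in 9, against 12.4% of all windows. Of the 7 genes with an NF-kappaB match, Ccl9 was measured on both arrays, Cxcl2 on the control array, and the other 5 on neither.

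The interferon-induced ligands of Cxcr3 differed widely in detection. Cxcl11 was bright on both arrays, with 42507 and 41086 on one probe and 3383 and 2813 on the other (log2 differences -0.02 and -0.23, mean -0.12). Cxcl9 and Cxcl10, which interferons induce together with Cxcl11, were at or near background. Cxcl10 read 5.02 and 9.69 on one probe and 4.07 and 4.24 on the other. Cxcl9 read 6.07 and 21.4 on the probe flagged in atopic diathesis only, at least 1.11-fold higher, and 4.41 and 4.28 on its second probe.

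The brighter Cxcl11 probe shares sequence with probes of other genes, and 30 bases of each are shown to make that visible. Capitals mark the bases shared without mismatch with the Cxcl11 probe, or, in the Cxcl11 probe, with the probe of another gene.
Cxcl11, brighter probe: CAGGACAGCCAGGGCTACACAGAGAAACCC
Glrx2: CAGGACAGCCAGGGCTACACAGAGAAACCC
Gm10856: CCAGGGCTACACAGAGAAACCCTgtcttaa
Ndor1: aggAGGACAGCCAGGGCTACACAGAGAcac
This stretch is known from the B1 family of short interspersed elements, repeats found within many mouse transcripts. The brighter probe shares at least 16 bases in a row with 11 probes of other genes, the longest run being 31 bases, which Glrx2, Elk1 and Med16 hold. All 11 were well above background on both arrays. Their signals ran from 86.8 over a median of 19057 to 116592 in control and from 86.7 over 18241 to 112080 in atopic diathesis microglia, where the median probe of the array read 5.36 and 7.92. The log2 differences of these 11 probes lay between -0.27 and 0.10. Only 0.988% of all probes share 16 bases with at least 10 probes of other genes. The other Cxcl11 probe, which enters the mean of -0.12, shares a run of 19 bases with 1 probe of another gene that was also bright on both arrays. No other ligand probe shares such a run with more than 2 probes on the same strand. The part of these repeats in the Cxcl11 signal was not tested. Without Cxcl11, 10 ligands were measured and their median log2 difference was -0.05.

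**Figure D4:**
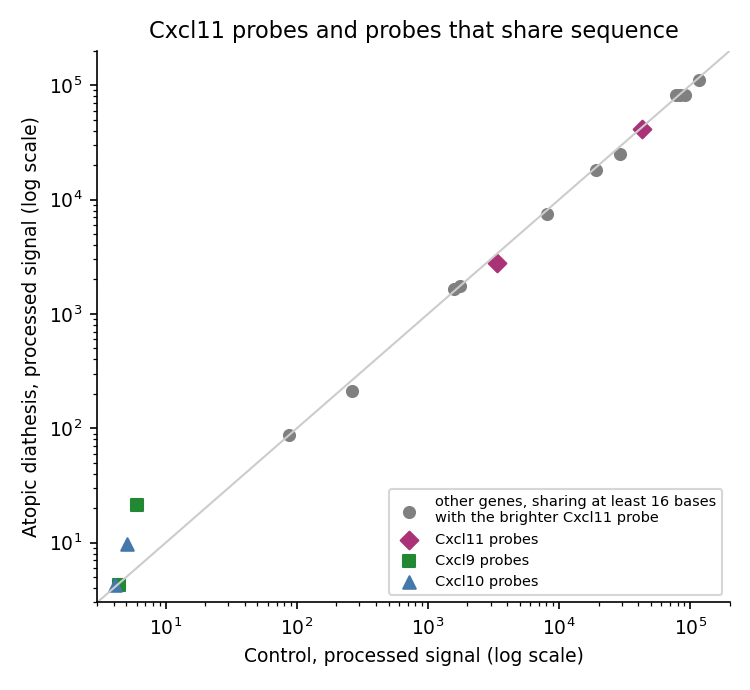
Processed signal in control (x axis) and atopic diathesis microglia (y axis), both on log scales, of the Cxcl11, Cxcl9 and Cxcl10 probes and of the 11 probes of other genes that share at least 16 bases with the brighter Cxcl11 probe; the line marks equal signal. Both Cxcl11 probes lie within the range of the probes that share sequence, while the Cxcl9 and Cxcl10 probes lie at or below 21.4.

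Of the homeostatic and mucosal ligands, 9 genes were on the array by the rule, and 2 were measured, each on a single probe out of several. Ccl19 guides T cells and dendritic cells through Ccr7. Its measured probe read 107.1 in control and 35.6 in the atopic diathesis sample, a 2.94-fold lower value (log2 difference -1.55). A second Ccl19 probe read 10.1 and 8.29, and the remaining one 3.96 and 6.18, neither of them well above background. With no filter on dim probes, which averages all 3, the log2 difference was -0.45, and with normexp it was -0.72, so the 2-fold call rests on 1 probe and on the background subtraction.

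Sequence placed 2 of the Ccl19 probes at the start of the gene. Below are 30 bases of the measured probe, which carry the call, and 30 of the second.
Ccl19, measured probe: tctctcaggctcactcactctctgtggcct
Ccl19, second probe: tggctcctgaaccccttcacgccacaggag
Against the RefSeq start site of Ccl19, all 60 bases of the second probe lie before the start, and of the measured probe 27 bases lie before it and 33 after. The remaining probe has no match in that window. The probe behind the Ccl19 value therefore covers the start site, with close to as many bases outside the annotated transcript as inside it. In mm9 probe coordinates all 3 Ccl19 probes lie on the plus strand of chromosome 4, the measured one at 42248630 to 42248689. RefSeq has the Ccl19 start on the minus strand, with the 120 bases before it at 42756366 to 42756485 (GRCm38.p6). Whether the coordinates place the probes at another copy of the gene was not tested. RefSeq also lists pseudogenes of Ccl19, which could share its signal, so the Ccl19 value is uncertain.

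Ccl25, a ligand of gut-homing T cells through Ccr9, read 36.6 and 53.1 on 1 of its 4 probes (log2 difference 0.57, but 0.07 to 0.65 over the processing settings). Its other probes read 16.6 or lower on both arrays, not well above background. Ccl27a, a skin ligand with a closely related copy, Ccl27b, reached 20.1 and 19.9 on its brightest probe without the flag. Cxcl14 read 9.48 and 16.5, Cxcl13, the B cell attractant, 4.16 and 7.05, and Ccl20, the ligand of Ccr6, 4.37 and 8.02. The probes of Cxcl12 read 5.21 and 4.56 as well as 4.94 and 5.36, and those of Ccl28 and Cxcl17 stayed at or below 5.71. Ccl21a, Ccl21b and Ccl21c, the other Ccr7 ligands, were not analysed here. Over all 21 undetected ligands, signals ran from 3.91 to 21.1 in control and from 3.99 to 19.9 in atopic diathesis microglia. Xcl1, the C ligand made by T and NK cells, read 12.1 and 12.9. Pf4 and Ppbp, platelet chemokines whose names fall outside the rule, were also undetected, Pf4 at 4.16 and 4.17.

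Both membrane-bound ligands read higher on the atopic diathesis array. Cxcl16, a scavenger receptor and ligand of Cxcr6, read 360 and 667, 1.90-fold higher (log2 difference 0.93, and 0.43 to 1.01 over the settings). It passed 2-fold only with the 75th percentile of probes above background on both arrays. Cx3cl1, the fractalkine of neurons, was not well above background in control (9.07) and barely so in atopic diathesis (21.8), at least 1.13-fold higher. That bound does not place Cx3cl1 within 2-fold, and it counted as past 2-fold with no filter on dim probes and when 1 array above background sufficed. Neither of the 2 genes found on the atopic diathesis array only reached a 2-fold bound, which 59.2% of the 2821 such genes did. Of the neuronal markers, Rbfox3, Syt1, Tubb3 and Nefl were on neither array, while the Snap25 probe read 82155 and 84015.

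Most receptors were not detected. Of 23 chemokine receptor genes, 5 were measured, 1 of them past 2-fold, and 17 were on neither array. Cx3cr1, the receptor of Cx3cl1, read 4465 and 4831 (log2 difference 0.15). Cxcr3, the receptor of Cxcl9, Cxcl10 and Cxcl11, read 69.8 and 27.6 (-1.30). Cxcr4, the receptor of Cxcl12, read 7.83 and 109, with only the latter well above background, at least 5.64-fold higher. Ccr6 (0.45) and Ccrl2 (-0.46) lay within 2-fold. The receptors of Ccl2 and Ccl12 (Ccr2), of Ccl6 and Ccl9 (Ccr1), of Ccl24 (Ccr3), of Cxcl2 (Cxcr2), of Ccl19 (Ccr7), of Ccl25 (Ccr9) and of Cxcl16 (Cxcr6) did not pass the background flag on either array.

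Of the genes that process or induce chemokines, about as many went undetected as were measured within 2-fold. Of 11 proteases that cut or shed them, 5 were measured, 0 of them past 2-fold, and 6 were on neither array. Adam10 (7642 and 6304, log2 difference -0.24) and Adam17 (85.6 and 138, 0.72) release Cx3cl1 and Cxcl16 from the membrane. Of 20 inducing cytokines and NF-kappaB or related factors, 11 were measured, 2 higher, 2 lower and 7 within 2-fold, while 7 were on neither array. The higher ones were the cytokine gene Il1b (3.27) and the interferon-response factor Irf1 (1.17), and the lower ones Il1a (-1.46) and the NF-kappaB subunit Rela (-1.42). Il1b has 1 probe, which read 26.4 in control, close to the lowest signal well above background. The size of its difference may thus depend on how background is treated, as for Ccl24, and its values under other settings are not reported here. The Irf1 value rests on 1 of its 2 probes. Tnf (0.54), Nfkb1 (-0.79) and Nfkbia (0.31) lay within 2-fold. Il6 (37.7 and 4.44) and the NF-kappaB subunit Relb passed on the control array alone, at least 1.85-fold and 2.64-fold lower in atopic diathesis. Relb has 3 probes, and its bound comes from the probe brightest in control, while another of them read 22.4 and 19.9. Il4 and Il13, which induce Ccl24 in macrophages, were on neither array, and Stat6, their transcription factor, read 225 and 237 (0.11).

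**Figure D5:**
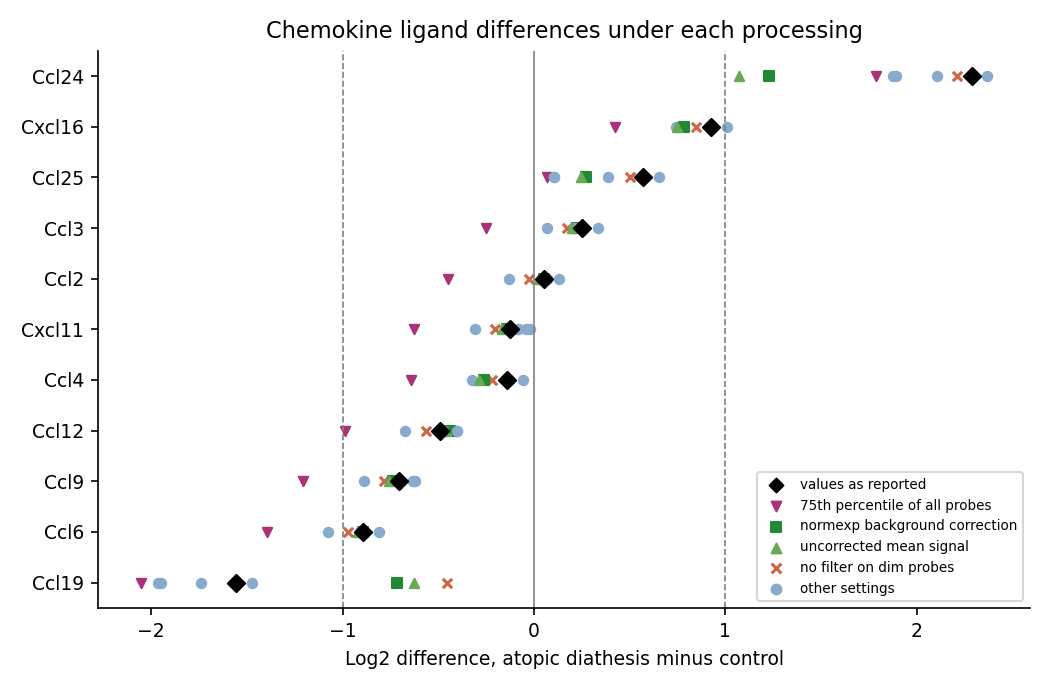
Log2 difference (atopic diathesis minus control) of each measured chemokine ligand under the processing as reported (black diamonds) and under 10 other settings, with dashed lines at 2-fold. Ccl24 stays past 2-fold throughout (1.07 to 2.37), whereas Ccl19 runs from -2.05 to -0.45.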

How the data were processed

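The authors deposited scanner files that list each spot's intensity on a linear scale, written by Agilent Feature Extraction (10.7.1.1 per the file headers, 9.5.1.1 per the submitters' processing notes), and a series table of normalized values. That table holds linear intensities with the same distribution in both columns (median 6.64 in each) and orders probes almost as the scanner signals do. How it was made is not stated here. The processed signal in them is background-subtracted. Probe coordinates are on mm9, per the file headers. From these files, control spots and spots flagged as outliers (136 and 122) were left out, log2 signals of a probe's spots were averaged, and a probe counted as above background where most of its usable spots did. Of 55681 probes, 13429 (24.1%) passed in control and 15385 (27.6%) in atopic diathesis. Genes were named by accession in RefSeq (27235 probes matched) or else by the file. A gene's difference is the mean over its probes above background on both arrays, minus the median over all measured genes. For ligands above background on 1 array, the bound used the brightest probe. The number of arrays limits the precision. The alternatives were other scalings, normexp (offset 50) by limma 3.58.1 in R 4.3.3, uncorrected signals, the series table, other filters, the brightest probe and kept outliers. Leaving out Cxcl11 was added after seeing the data. All ligands with a probe above background on at least 1 array are given with both signals, and the others by their signals or range. From the other lists, genes past 2-fold and the ligands' receptors are named, and further list members were named after their values were seen. Some list members and probe sequences are not reported here. The ligands, gene lists and cell type markers were chosen with earlier results of these data known. Recovery of known differences was checked on simulated data.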

Additional observations from a re-analysis of the deposited data

How the results depend on the processing

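Of 110 values for the 11 measured ligands under 10 other settings, 90 moved by less than the spot interval, 20 moved by more, and no difference past 2-fold changed sign. Ccl2 and Ccl3, near 0, were below 0 under some settings. The number of ligands at least 2-fold higher was 1 as reported, 2 with the 75th percentile of probes above background on both arrays (Cxcl16 joining Ccl24), 2 with no filter on dim probes and 3 when 1 array above background sufficed. The number at least 2-fold lower was 1 as reported, 3 with the 75th percentile of all probes (Ccl6 and Ccl9 joining Ccl19), 3 when 1 array above background sufficed, 0 with normexp and 0 on uncorrected signals. The median over the ligands was -0.62 with the 75th percentile of all probes, a scaling that put the median of all measured genes at -0.50 and the share of higher genes among those past 2-fold at 28.3%, against 52.6% as reported and 42.0% with quantile normalization or the deposited series table. By a weaker background criterion (signal positive and significant at any probe of a gene), 24 ligand genes were detected in control and 25 in atopic diathesis, against 12 and 13. Of all single probes, 52.1% and 61.1% met that criterion. The share over all genes was not computed, so the ligand genes cannot be set against the array here. The bound for Cxcl2 was at least 2-fold under all 4 other settings run (5.65 to 36.5). No paired analysis was possible because each group has 1 array.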

Other observations

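Across the whole array, 550 probes share at least 16 bases in a row with 10 or more probes of other genes, as the brighter Cxcl11 probe does. Their median signal was 440 in control and 542 in atopic diathesis microglia, and 78% of them were well above background on both arrays, against 20.2% of all probes.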
